A study of Sus scrofa with 18 samples.

Results

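A set of 9 stromal genes of the kidney were followed here: the transcription factors TCF21 and MEIS1, the adhesion molecules ITGA8 and CDH11, the chemokine CXCL12, the proteoglycans LUM, DCN and VCAN, and the microfibril protein MFAP5. The members were chosen by their measured values: 5 of them had been named in an earlier account of these arrays because they fell at 4 h against naive kidney, and the list was drawn up with the levels in all 5 groups known. Every probe set whose only gene symbol in the array's annotation is one of these names was taken, which gave 9 of 6765 genes and 20 of the 10069 probe sets with 1 symbol, among 23999 probe sets tested. Each gene is described by its probe set with the highest mean over the 18 arrays, and other probe sets are given where they differ. Levels are log2 values of normalised array signal, so a difference of 1 is a factor of 2.

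The study measured gene expression in pig kidneys after transplantation, with and without carbon monoxide (CO), a gas given to limit the injury that follows when blood returns to a stored organ. There were 4 kidneys with CO at 24 h, 4 untreated kidneys at 24 h, 4 kidneys with CO at 4 h, 4 untreated kidneys at 4 h, and 2 naive kidneys that had not been transplanted. Donors 1 to 4 gave the kidneys taken at 4 h and donors 5 to 8 those taken at 24 h, and each of these 8 donors gave 1 kidney with CO and 1 without. The treatment entry of the CO arrays reads air while their titles and sources name CO, which was followed. Which of donor, graft and recipient received the gas was not stated in the labels, and numbers in the names of the naive arrays recur in those of donor 4, so these kidneys may share an animal.

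Interstitial fibroblasts and mesangial cells fill the space between tubules and within glomeruli and lay down the matrix that holds the organ together. TCF21 and MEIS1 are transcription factors of kidney mesenchyme, known from mouse development, and TCF21 is also made by podocytes. ITGA8 is the integrin chain of mesangial and stromal cells that binds nephronectin, CDH11 is the cadherin that joins fibroblasts to one another, and CXCL12 attracts cells that carry CXCR4. Lumican (LUM) and decorin (DCN) are small leucine-rich proteoglycans that coat collagen fibrils, versican (VCAN) is a large proteoglycan that binds hyaluronan and is also made by monocytes, and MFAP5 sits on the microfibrils of elastic fibres.

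The untreated 4 h array of donor 1 stood apart: its mean correlation with the naive arrays was 0.982, against 0.956 with the other arrays of its own group. The values that moved most without it are given both ways. Array medians ran from 3.75 to 3.94. The 3' minus 5' difference of the actin control, a sign of RNA breakdown, was 1.22 to 2.79 in CO 24 h, 1.20 to 2.27 in untreated 24 h, 1.32 to 1.88 in CO 4 h, 1.54 to 2.06 in untreated 4 h and 1.68 to 1.91 in naive arrays. In the file names the arrays fall into 4 batches, of which 1 held naive 1 and both kidneys of donors 1, 3 and 4, another held naive 2, the untreated donor 5 kidney and the donor 2 pair, and the remaining 24 h arrays lay in the other two batches. No batch held CO kidneys of both times, or CO 24 h and naive kidneys. The untreated donor 5 kidney was the only 24 h kidney in a batch with naive or 4 h kidneys. With batch as a term, each 24 h difference from naive or 4 h kidneys thus rests on that array. Calls lost there cannot be told apart from lost precision.

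TCF21 was below naive in every transplanted kidney. Its log2 level was 6.53, 6.83, 7.25 and 6.31 in CO 24 h kidneys of donors 5 to 8, and 6.48, 6.68, 6.72 and 6.40 in the untreated 24 h kidneys. At 4 h it was 5.62, 4.24, 5.80 and 4.22 with CO in donors 1 to 4 and 6.73, 5.28, 5.86 and 5.20 without, against 7.40 and 7.34 in naive kidneys. The 4 h kidneys were mostly the lowest, and all 4 CO kidneys at 24 h lay above all 4 at 4 h. Group means were 6.73 ± 0.41 in CO 24 h, 6.57 ± 0.15 in untreated 24 h, 4.97 ± 0.86 in CO 4 h, 5.77 ± 0.71 in untreated 4 h and 7.37 ± 0.04 in naive kidneys (SD, n = 4, 4, 4, 4 and 2). In whole tissue, fewer cells of a type and less RNA per cell cannot be told apart, here or for any gene below.

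MEIS1, the other transcription factor, had levels of 5.45, 5.46, 6.01 and 5.06 with CO at 24 h and 5.09, 5.21, 5.56 and 4.67 untreated at 24 h. At 4 h it had 3.52, 3.88, 4.17 and 3.19 with CO and 5.68, 5.41, 3.75 and 3.14 untreated, against 5.03 and 5.62 in naive kidneys. The CO 4 h kidneys were all below every 24 h and naive kidney. The untreated 4 h kidneys split, with donors 1 and 2 near the naive level and donors 3 and 4 near the level of the CO 4 h kidneys. A second, dimmer MEIS1 probe set differed there, with r = 0.712 between both sets. Its untreated 4 h kidneys, at 2.50 to 3.37, were all above the CO 4 h kidneys, at 2.01 to 2.46. Its mean was 2.93 in untreated 4 h, 2.63 in untreated 24 h and 2.74 in naive kidneys.

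CDH11 moved with MEIS1, with r = 0.947 over the 18 arrays and 0.890 after group means were removed. It measured 6.70, 6.28, 6.99 and 5.98 with CO at 24 h and 5.37, 6.25, 6.47 and 5.71 untreated at 24 h. The 4 h kidneys gave 3.76, 3.75, 4.43 and 3.35 with CO and 6.47, 5.29, 3.95 and 3.65 untreated, against 6.41 and 6.07 in naive kidneys. Again untreated donors 1 and 2 were high at 4 h and donors 3 and 4 were within the range of the CO kidneys. The other 2 probe sets of CDH11 correlated with this one at 0.871 and 0.766.

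ITGA8 had 3 probe sets that moved together, with r from 0.909 to 0.954. Its brightest probe set had 3.97, 4.07, 3.83 and 3.45 with CO at 24 h and 4.59, 3.71, 3.90 and 3.87 untreated at 24 h. The 4 h levels were 3.06, 3.01, 2.89 and 3.30 with CO and 4.78, 2.88, 2.73 and 3.18 untreated, against 4.28 and 5.01 in naive kidneys. All 4 h kidneys except untreated donor 1 lay below all naive and all 24 h kidneys. In the third probe set all CO 4 h arrays were not above background, set at 1.607 from 17 control probe sets, and the level was at least 3.04-fold lower in CO 4 h than in naive kidneys.

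The brightest CXCL12 probe set gave 5.47, 4.62, 5.38 and 4.12 with CO at 24 h and 4.06, 4.81, 6.32 and 3.47 untreated at 24 h. In 4 h kidneys the values were 2.71, 1.58, 3.39 and 3.96 with CO and 5.41, 4.19, 3.55 and 3.30 untreated, against 6.00 and 4.92 in naive kidneys. The CO 4 h kidneys were all below naive and below all CO 24 h kidneys, with the widest spread of the members in that group (SD 1.02, n = 4). Donor 2, at 1.58, was not above background. A second CXCL12 probe set did not share this pattern, with r = 0.320 between both sets. It read 3.62, 3.96, 3.52 and 3.13 with CO at 24 h, 4.24, 3.11, 4.36 and 4.70 with CO at 4 h, and 5.09 and 5.12 in naive kidneys, so there the 24 h kidneys were not the higher ones.

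LUM and DCN moved together, with r = 0.852 over 18 arrays and 0.856 after group means were removed. LUM had 4.83, 5.24, 4.79 and 4.52 with CO at 24 h and 3.94, 5.07, 4.75 and 4.45 untreated at 24 h. At 4 h it had 3.50, 3.73, 4.68 and 3.67 with CO and 5.86, 8.65, 4.90 and 3.66 untreated, against 5.96 and 5.25 in naive kidneys. Untreated donor 2 at 4 h stood far above every other kidney, and the other untreated 4 h kidneys overlapped both naive and CO kidneys.

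DCN had 8.17, 7.36, 8.15 and 7.64 with CO at 24 h and 6.82, 7.02, 7.65 and 7.58 untreated at 24 h. At 4 h it had 7.16, 7.24, 7.69 and 6.97 with CO and 8.70, 9.65, 7.58 and 6.83 untreated, against 8.95 and 8.80 in naive kidneys. Only untreated donor 2 at 4 h exceeded the naive kidneys, and every CO and every 24 h kidney was below them. A second DCN probe set was not above background on any of the 18 arrays.

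VCAN ran the other way. Its level was 4.76, 4.03, 4.78 and 3.71 with CO at 24 h and 5.08, 5.12, 4.02 and 2.98 untreated at 24 h. Its 4 h levels were 2.88, 2.42, 3.04 and 2.63 with CO and 2.00, 5.15, 5.01 and 4.90 untreated, against 2.28 and 1.95 in naive kidneys. All kidneys except untreated donor 1 at 4 h were above naive, and at 4 h the CO kidneys lay between naive and the untreated kidneys of donors 2 to 4. A second VCAN probe set followed it (r = 0.874) and was not above background in either naive kidney, and the other 3 correlated with the brightest set at 0.629, -0.193 and -0.291.

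MFAP5 was low in every transplanted kidney. It had 3.36, 3.04, 2.99 and 3.45 with CO at 24 h, 3.01, 2.10, 2.21 and 3.33 untreated at 24 h, 3.10, 3.59, 2.45 and 2.76 with CO at 4 h and 2.67, 2.65, 2.34 and 3.00 untreated at 4 h. The naive kidneys had 5.96 and 3.87. Both exceeded all 16 transplanted kidneys, but they differed from each other by more than the transplanted kidneys did among themselves.

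**Figure D1:**
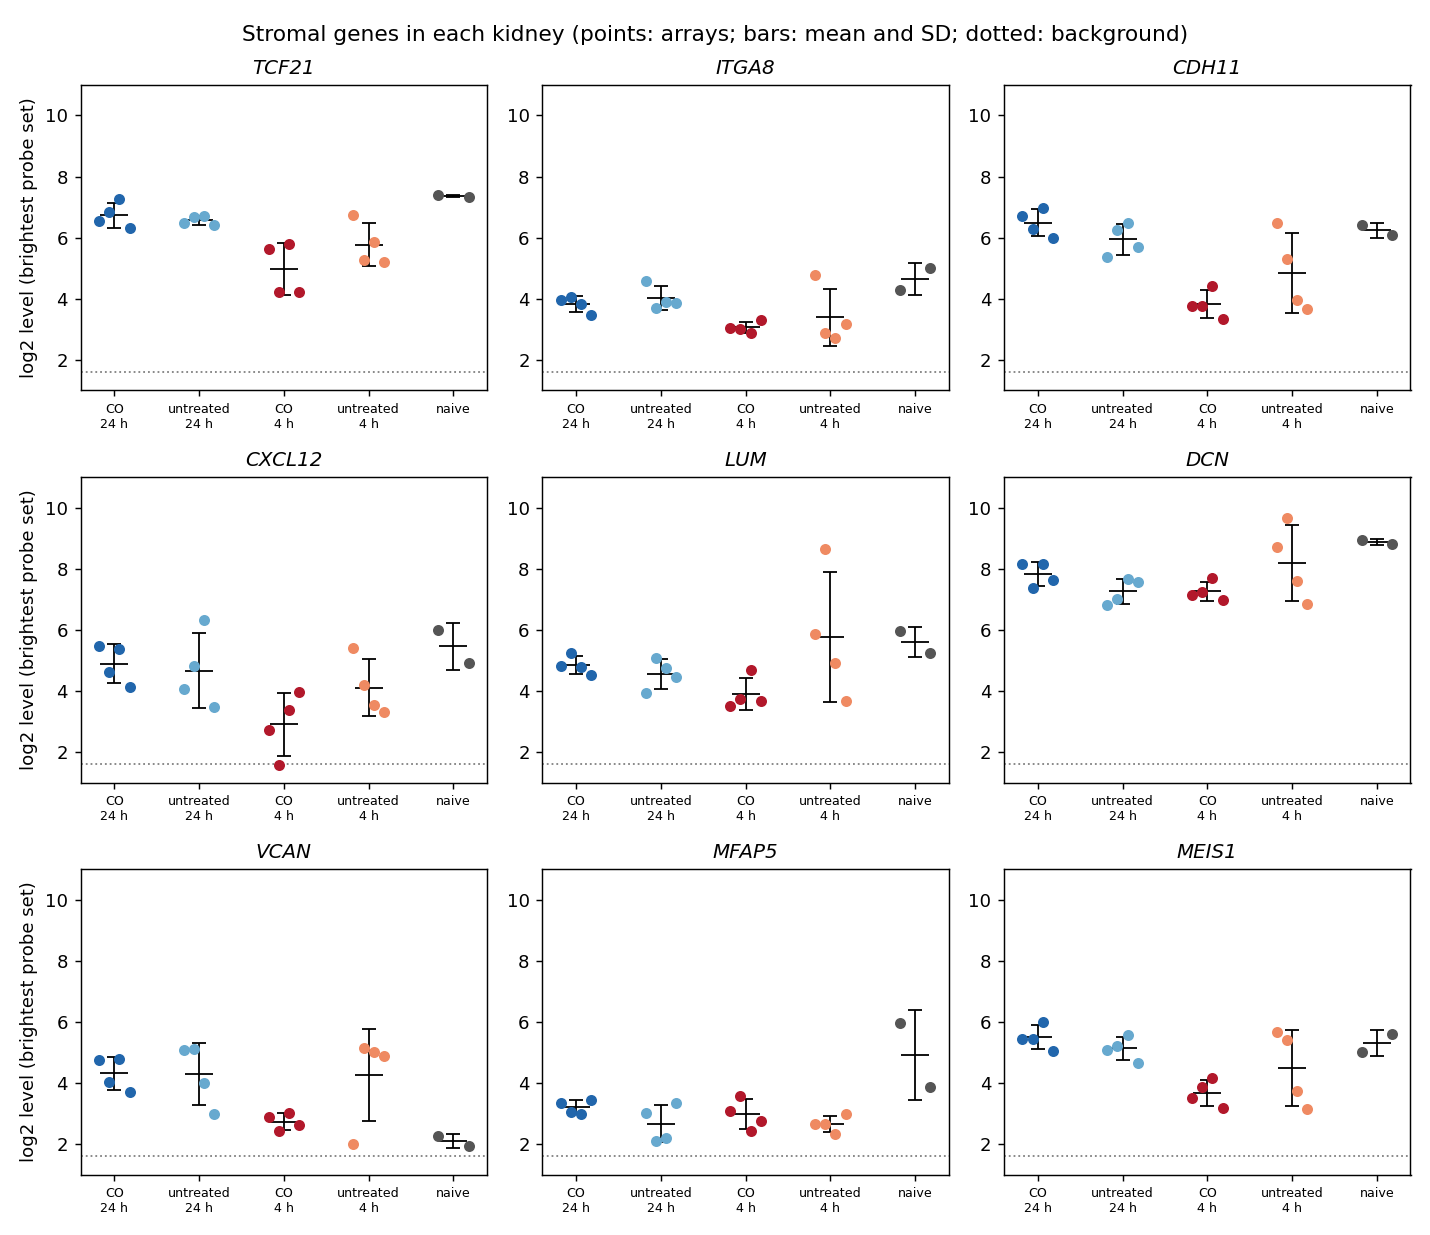
Log2 level of each gene (vertical axis, brightest probe set) in every kidney, by group; points are arrays, bars are the mean and SD, and the dotted line is the background at 1.607. TCF21, CDH11, MEIS1, ITGA8 and CXCL12 are lowest in the CO 4 h kidneys or near it, VCAN is low in naive and CO 4 h kidneys, and LUM has 1 high kidney at 8.65.

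Kidneys with CO at 4 h were compared with naive kidneys to describe how the levels of these genes differed. The comparison takes transplantation, early reperfusion and the gas together. Of the 9 genes 8 were lower, with log2 differences of -2.55 ± 0.75 for CXCL12 (donor 2 not above background), -2.42 ± 0.58 for CDH11, -2.40 ± 0.45 for TCF21, -1.94 ± 0.46 for MFAP5, -1.71 ± 0.85 for LUM, -1.63 ± 0.54 for MEIS1, -1.61 ± 0.53 for DCN and -1.58 ± 0.42 for ITGA8 (limma standard errors). VCAN differed by 0.63 ± 0.72. TCF21, ITGA8, CDH11, CXCL12 and MFAP5 had an adjusted p below 0.05, 5 lower and 0 higher, where 6.84% of all probe sets were called higher and 6.72% lower. The groups did not overlap for 8 genes lower, against 20% of all probe sets, and for VCAN higher, against 17.6%. The genes were chosen on this comparison, so nothing is read from these calls or shares, and no single p is given. The median was -1.71 for the 9 genes and -0.01 for all probe sets, and the median within batch was -2.01 in the batch of naive 1 and -1.74 in that of naive 2. Without either naive array 0 of the 9 passed, and the MFAP5 difference was -0.90 without naive 1 and -2.99 without naive 2. Over all probe sets the calls fell to 79 without naive 1 and to 1 without naive 2, against 3254 with both.

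Untreated kidneys at 4 h had a mean between CO 4 h and naive kidneys for 6 of the 9 genes. The differences from naive were -2.25 ± 0.46 for MFAP5, -1.60 ± 0.45 for TCF21, -1.40 ± 0.58 for CDH11, -1.35 ± 0.75 for CXCL12, -1.26 ± 0.42 for ITGA8, -0.83 ± 0.54 for MEIS1 and -0.69 ± 0.53 for DCN, with 0.16 ± 0.85 for LUM and 2.15 ± 0.72 for VCAN. MFAP5 alone passed the threshold, 0 higher and 1 lower, where 0.942% of all probe sets were higher and 0.563% lower. TCF21 and MFAP5 were below naive with no overlap, which held for 15.8% of all probe sets. This comparison named MFAP5, so it too is given without a p. Without donor 1 the differences were -1.92 for TCF21, -1.95 for CDH11, -1.72 for ITGA8 and 2.91 for VCAN, with -1.78 for CXCL12, -1.22 for MEIS1 and -0.86 for DCN. Then 5 genes passed in place of 1, while all probe sets called rose to 3347 from 361. Without donor 2 the LUM difference was -0.80 in place of 0.16, and 0 of the 9 passed. The MFAP5 difference ran from -3.29 to -1.21 with each array left out, and its call was lost without naive 1 or untreated donor 2, 3 or 4.

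At 24 h the level of most of the genes in CO kidneys was nearer to naive than at 4 h, while MFAP5 stayed below it and VCAN above it. In untreated kidneys TCF21, ITGA8, CDH11, CXCL12 and MEIS1 were nearer too, but LUM and DCN were farther from naive than at 4 h. The second CXCL12 probe set was farther from naive at 24 h than at 4 h, with CO and without. In CO kidneys the differences from naive were -0.64 ± 0.45 for TCF21, -0.81 ± 0.42 for ITGA8, 0.24 ± 0.58 for CDH11, -0.56 ± 0.75 for CXCL12, 0.17 ± 0.54 for MEIS1, -0.76 ± 0.85 for LUM, -1.05 ± 0.53 for DCN, 2.21 ± 0.72 for VCAN and -1.71 ± 0.46 for MFAP5. MFAP5 passed (limma adjusted p = 0.024), 0 higher and 1 lower of 9, where 5.75% of all probe sets were higher and 5.93% lower, and a single call among 9 genes is not read as more than those shares. VCAN did not pass (adjusted p = 0.057). There were 5 genes below naive, and VCAN above it, with no overlap, which held for 20.4% and 18.7% of all probe sets. The MFAP5 call was lost without naive 1 (-0.66, adjusted p = 0.513), without CO donor 6 or 7, and with batch as a term (-1.07, adjusted p = 0.736), and when CO 24 h and naive arrays alone were fitted (adjusted p = 0.068). With batch as a term 0 of all probe sets passed here, against 2804 without it.

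Untreated kidneys at 24 h differed from naive by -0.80 ± 0.45 for TCF21, -0.63 ± 0.42 for ITGA8, -0.29 ± 0.58 for CDH11, -0.80 ± 0.75 for CXCL12, -0.19 ± 0.54 for MEIS1 and -1.05 ± 0.85 for LUM. DCN (-1.61 ± 0.53, limma adjusted p = 0.0505) and VCAN (2.19 ± 0.72, adjusted p = 0.0513) fell just outside the threshold and MFAP5 (-2.25 ± 0.46, adjusted p = 0.0042) passed it. The count was 0 higher and 1 lower, where 6.79% and 7.77% of all probe sets were called. There were 4 genes below naive and VCAN above it with no overlap, as did 19.2% and 19.8% of all probe sets. Without naive 1 MFAP5 did not pass (-1.21, adjusted p = 0.146), nor did it with batch as a term (-1.80, adjusted p = 0.26), where 159 probe sets passed, against 3494 without it. These 24 h comparisons use the same 2 naive kidneys as those at 4 h, on which members were chosen, so low values of naive-high genes such as MFAP5 are not independent of that choice.

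**Figure D2:**
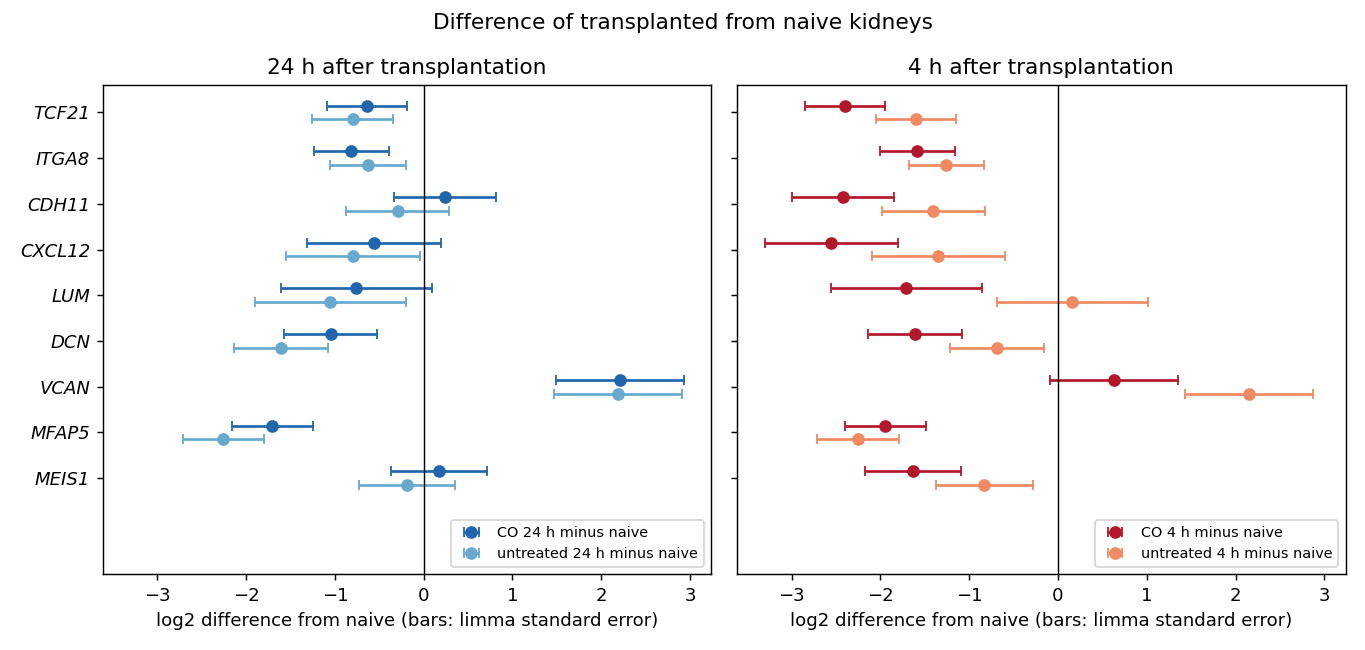
Log2 difference of each gene from naive kidneys at 24 h (left) and 4 h (right), with limma standard errors as bars, for CO and untreated kidneys. At 4 h CO kidneys range from -2.55 to 0.63. At 24 h TCF21, CDH11, CXCL12 and MEIS1 lie between -0.80 and 0.24, while MFAP5 stays at or below -1.71 and VCAN near 2.2. DCN lies at -1.05 with CO and -1.61 untreated at 24 h.

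The CO kidneys at 24 h were set against the CO kidneys at 4 h, which come from other donors. CDH11 was higher at 24 h by 2.66 ± 0.47 (limma adjusted p = 0.0016), MEIS1 by 1.81 ± 0.44 (adjusted p = 0.0107), TCF21 by 1.76 ± 0.37 (adjusted p = 0.0044) and CXCL12 by 1.99 ± 0.61 (adjusted p = 0.0346). The other differences were 1.58 ± 0.59 for VCAN, 0.95 ± 0.69 for LUM, 0.77 ± 0.35 for ITGA8, 0.56 ± 0.43 for DCN and 0.24 ± 0.37 for MFAP5. Thus 4 of 9 passed higher and 0 lower, where 10.2% and 7.44% of all probe sets did, and the groups did not overlap for 6 genes, all higher at 24 h, against 11.2%. The median was 1.58 for the 9 genes and -0.04 for all probe sets. Since the genes were chosen for being low in CO 4 h kidneys, a rise from that level is partly fixed by the choice. The p-values and counts of this comparison are thus a description and are not read as a test of the rise. Leaving out CO donor 1, 2, 5, 6 or 7 lost the CXCL12 call, and its second probe set differed by -0.55 ± 0.30. No batch held both groups, and with batch as a term 0 of 9 genes and 0 of all probe sets passed, against 4226 probe sets without it. The differences were then 2.08 for TCF21, 1.88 for CDH11, 1.96 for CXCL12 and 1.23 for MEIS1.

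Between the times, 0 of 9 genes passed in either direction in untreated kidneys, where 5.15% of all probe sets were called higher and 4.57% lower. The differences, 24 h minus 4 h, were 1.11 ± 0.47 for CDH11 (limma adjusted p = 0.161), 0.80 ± 0.37 for TCF21, 0.64 ± 0.44 for MEIS1, 0.63 ± 0.35 for ITGA8 and 0.55 ± 0.61 for CXCL12, with -0.92 ± 0.43 for DCN and -1.21 ± 0.69 for LUM. VCAN differed by 0.03 ± 0.59. Of all 20 probe sets of the 9 genes 1 passed, higher at 24 h, and it was not the brightest of its gene. The second MEIS1 probe set had a lower mean at 24 h (2.63) than at 4 h (2.93). Without untreated donor 1 at 4 h, CDH11 (1.65), TCF21 (1.12) and ITGA8 (1.09) passed and VCAN was -0.72; without untreated donor 4 at 4 h, DCN passed (-1.37). There were 3 genes with an unadjusted p under 0.05, and 5560 of the 23999 probe sets. With batch as a term 0 of all probe sets passed between the times in untreated kidneys, against 2332 without it.

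Whether CO altered these genes was asked within each time, where each donor gave 1 kidney to each group. At 4 h the mean was lower with CO for 8 of 9 genes, and for 46.5% of all probe sets. The differences were -1.87 ± 0.69 for LUM, -1.52 ± 0.59 for VCAN, -1.20 ± 0.61 for CXCL12, -1.02 ± 0.47 for CDH11, -0.92 ± 0.43 for DCN, -0.80 ± 0.44 for MEIS1, -0.80 ± 0.37 for TCF21, -0.33 ± 0.35 for ITGA8 and 0.31 ± 0.37 for MFAP5. None passed in limma (adjusted p = 0.999 for each): 0 higher and 0 lower of 9, as 0% of all 23999 probe sets did. At an unadjusted p under 0.05 there were 5 of the 9 genes and 787 probe sets. The median was -0.92 for the genes and 0.02 for all probe sets. It was -0.48 without untreated donor 1 and -0.86 without untreated donor 2, with ITGA8 at 0.14 without donor 1 and LUM at -0.91 without donor 2.

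Within donors at 4 h, the CO kidney was the lower one in 22 of 36 gene and donor pairs. These pairs share 4 donors and genes that move together, so they are not separate observations. TCF21 was lower in 4 of 4 donors, with differences of -1.12, -1.05, -0.06 and -0.98 in donors 1 to 4. VCAN was lower, at -2.73, -1.97 and -2.27 in donors 2, 3 and 4 and higher by 0.88 in donor 1. CDH11, MEIS1, LUM and DCN differed by more than 1.5 in donors 1 and 2, and by 0.49 or less in donors 3 and 4. In donor 2 LUM differed by -4.93 and DCN by -2.40.

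At 24 h the CO kidneys had the higher mean for 8 of 9 genes, while 51.3% of all probe sets were lower with CO. The differences were 0.56 ± 0.43 for DCN, 0.55 ± 0.37 for MFAP5, 0.54 ± 0.47 for CDH11, 0.36 ± 0.44 for MEIS1, 0.29 ± 0.69 for LUM, 0.23 ± 0.61 for CXCL12, 0.16 ± 0.37 for TCF21, 0.02 ± 0.59 for VCAN and -0.19 ± 0.35 for ITGA8. Again 0 of 9 genes and 0% of all probe sets passed in limma in either direction, and 0 of the 9 genes had an unadjusted p under 0.05, as did 281 probe sets. The CO kidney was lower in 8 of 36 pairs, and CDH11, MEIS1, LUM, DCN and MFAP5 were higher with CO in all 4 donors. As at 4 h, the pairs are not separate observations, and nothing is read from these counts. The levels in these kidneys were known when the list was drawn up. In donors 5 and 6 the CO and untreated kidneys lay in different file-name batches, and in the batch that held 3 kidneys of each group LUM differed by -0.043.

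The CO minus untreated difference was higher at 24 h than at 4 h for all 9 genes, by 0.14 ± 0.49 for ITGA8 to 2.17 ± 0.98 for LUM, with a median of 1.44 against -0.03 for all probe sets. Of all probe sets 53.6% had a lower difference at 24 h. The ITGA8 value was -0.32 without untreated donor 1 at 4 h and -0.045 with array weights. None of the 9 passed the limma test of that difference (adjusted p = 0.996), nor did any probe set (0% in either direction), and 3 genes and 612 probe sets had an unadjusted p under 0.05. These times differ in donors and in batches.

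**Figure D3:**
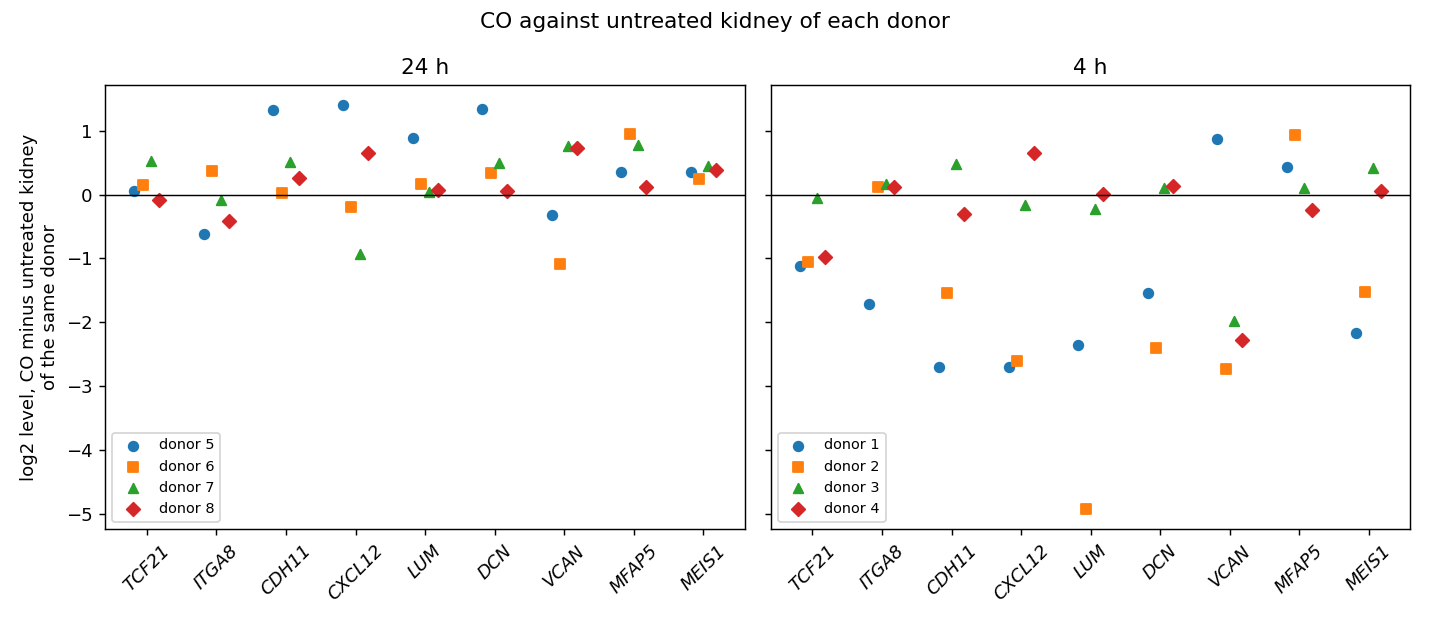
Log2 level of the CO kidney minus that of the untreated kidney of the same donor (vertical axis) for each gene, at 24 h in donors 5 to 8 (left) and at 4 h in donors 1 to 4 (right). Differences reach -4.93 at 4 h, mostly in donors 1 and 2 (VCAN excepted), and stay between -1.08 and 1.40 at 24 h.

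Averaged over the 9 genes, the level above the naive mean was -0.32 ± 0.29 in CO 24 h, -0.60 ± 0.24 in untreated 24 h, -1.69 ± 0.25 in CO 4 h and -0.78 ± 0.68 in untreated 4 h kidneys (SD, n = 4 each). The untreated 4 h kidneys had -0.25, -0.16, -1.21 and -1.52 in donors 1 to 4, so 2 of them lay with the 24 h kidneys and 2 near the CO 4 h kidneys, whose highest was -1.34. This average includes VCAN, which ran the other way and draws it towards naive. VCAN was above naive by 2.21 in CO 24 h, 2.19 in untreated 24 h, 0.63 in CO 4 h and 2.15 in untreated 4 h kidneys. The members were chosen with these levels known, so the average is a description only.

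The genes did not behave as 1 block. Over the 36 pairs the correlation across the 18 arrays had a median of 0.365 and ran from -0.466 (VCAN and MFAP5) to 0.947 (CDH11 and MEIS1). These correlations describe arrays that share donors, batches and normalisation. TCF21, ITGA8, CDH11, CXCL12 and MEIS1 correlated with one another at 0.63 to 0.95, LUM and DCN correlated at 0.852, and MEIS1 also with LUM (0.556) and DCN (0.570), so the sets were not separate. VCAN and MFAP5 correlated with neither set above 0.354. Since members were chosen for low values at 4 h, the correlations across groups are partly set by that choice. Within groups, TCF21, ITGA8, CDH11, CXCL12 and MEIS1 correlated at 0.307 (ITGA8 and CXCL12) to 0.890 (CDH11 and MEIS1). There VCAN and ITGA8 had -0.586, MEIS1 had 0.698 with LUM and 0.798 with DCN, and CDH11 had 0.748 with DCN.

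**Figure D4:**
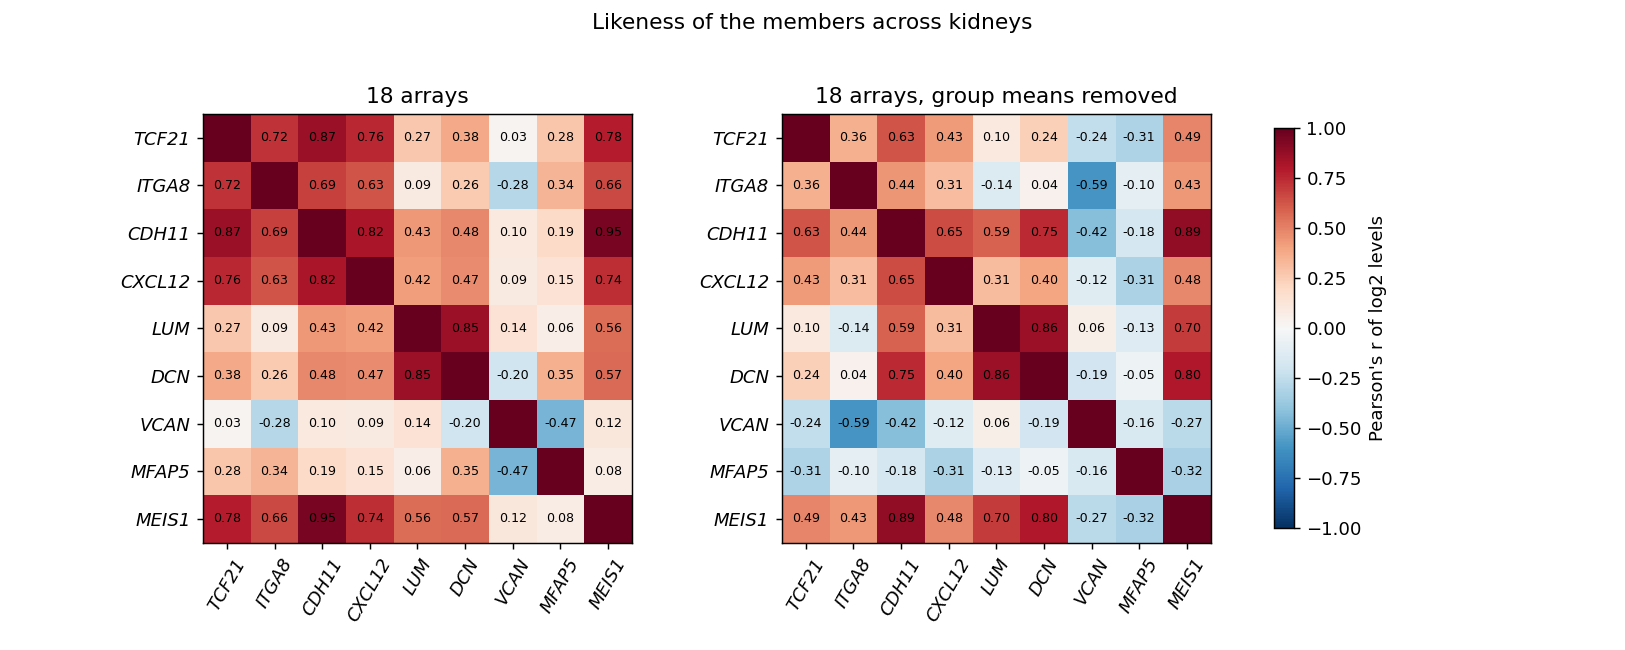
Pearson correlation of log2 levels between each pair of genes over the 18 arrays (left) and after each group's mean was removed (right). CDH11 with MEIS1 (0.947 and 0.890) and LUM with DCN (0.852 and 0.856) keep high values in both, while VCAN and MFAP5 have low or negative ones.

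Outside the list, the genes most like the mean of the 9, among 6299 genes and over 18 arrays, were CRTAP (r = 0.910), FHL2 (0.889), CEP192 (0.883), ZNF3 (0.873) and KDELC1 (0.870). The nearest gene to TCF21 and to CDH11 was MEIS2 (0.868 and 0.928), to MEIS1 it was VSTM4 (0.947), to LUM it was MMP2 (0.858) and to DCN it was FAP (0.849). VCAN was nearest to FCN1 (0.908), ITGA8 to SSU72 (0.914), CXCL12 to AGTPBP1 (0.859) and MFAP5 to CTNS (0.880).

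VCAN levels moved with markers of macrophages and granulocytes in the untreated kidneys, and less clearly in the CO kidneys. The mean level of 10 measured markers of 16 was 3.10 to 4.84 in CO 24 h, 3.58 to 5.01 in untreated 24 h, 3.13 to 3.47 in CO 4 h, and 2.52 to 3.08 in naive kidneys. In untreated 4 h kidneys it was 3.30 in donor 1, where VCAN was 2.00, and 4.75, 4.24 and 4.54 in donors 2, 3 and 4, where VCAN was between 4.90 and 5.15. In untreated 24 h kidneys of donors 5 to 8 it was 4.68, 5.01, 4.38 and 3.58, with VCAN at 5.08, 5.12, 4.02 and 2.98. In CO 24 h kidneys it was 3.99, 4.84, 4.48 and 3.10, with VCAN at 4.76, 4.03, 4.78 and 3.71, so the order was not shared. CO donor 8 had a marker mean below every CO 4 h kidney but VCAN above all of them. In CO minus untreated at 4 h, 9 of the 10 markers were below 0 with a median of -1.15 (-1.48 without untreated donor 1), and 0 passed in limma. Their part in the VCAN values was not tested. S100A8 was not above background in naive kidneys. Of 12 podocyte markers only WT1 and VEGFA were measured, and 0 passed in any comparison, so the podocyte share of TCF21 was not tested. Among 8 of 12 fat and adrenal markers the list mean was 1.98 to 2.52 in all kidneys, with CYP11A1 and STAR not above background in any group. LPL, a lipase of fat, was lower than naive in CO 24 h and untreated 24 h kidneys, at -1.57 ± 0.28 in both, and the steroid enzyme HSD3B1 in untreated 24 h kidneys, at -0.93 ± 0.26 (limma adjusted p at most 0.0263).

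**Figure D5:**
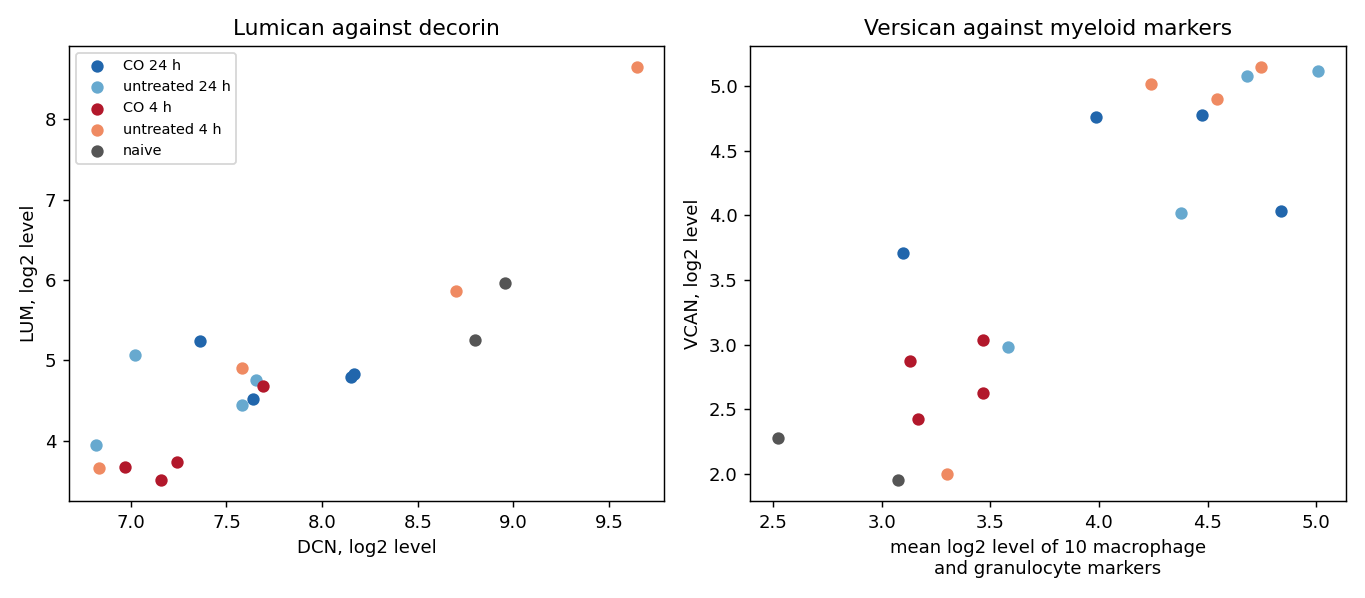
Left, log2 level of LUM against DCN in each kidney; right, log2 level of VCAN against the mean log2 level of 10 macrophage and granulocyte markers. The untreated 4 h kidney with LUM at 8.65 is also the one with the highest DCN (9.65), and untreated 4 h kidneys with VCAN of 4.90 to 5.15 have marker means of 4.24 to 4.75, against 3.30 where VCAN is 2.00.

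Other interstitial fibroblast and matrix genes gave a wider view, with 28 of 38 measured. Their mean level was 5.69 to 6.23 in CO 24 h, 5.76 to 6.00 in untreated 24 h, 5.10 to 5.45 in CO 4 h and 5.82 to 5.93 in naive kidneys, and in untreated 4 h kidneys it was 5.92, 6.94, 5.46 and 5.16 in donors 1 to 4. Donor 2, which had the high LUM and DCN, was thus also highest for this list. In CO 4 h against naive kidneys 1 of 28 passed higher and 3 lower, with a median of -0.81, where 6.84% and 6.72% of all probe sets did. The lower ones were TNXB (-1.40), the Wnt antagonist SFRP1 (-1.23) and the IGF-binding IGFBP6 (-1.17). The higher one was TIMP3, an inhibitor of matrix proteases, at 1.11 ± 0.32, named after its value was seen. In untreated 4 h kidneys 0 passed, with a median of 0.03 (-0.04 without donor 1 and -0.39 without donor 2). Between CO and untreated kidneys at 4 h 25 of 28 were below 0, with a median of -0.61 and 0 passing, and without untreated donor 2 there were 21 of 28 with a median of -0.19.

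At 24 h the mesenchymal filament VIM was higher than naive by 1.96 ± 0.34 with CO and by 2.06 ± 0.34 untreated, and S100A4 by 2.78 ± 0.60 and 3.18 ± 0.60, while IGFBP5 was lower, at -1.77 ± 0.47 and -1.83 ± 0.47 (limma adjusted p at most 0.0238 for each). With batch as a term none of the 3 passed, and IGFBP5 was at -0.62 with CO and -0.85 untreated. In CO kidneys at 24 h against 4 h, 8 of 28 passed higher and 1 lower with a median of 0.69, where 10.2% and 7.44% of all probe sets did. The complement genes C1R (1.94) and C1S (1.88) were among the higher ones, and none passed with batch as a term. The lower one was again TIMP3 (-1.70 ± 0.26, limma adjusted p = 6.5e-04). In untreated kidneys 1 passed higher (VIM, 1.07) and 1 lower (the fibroblast protease FAP, -1.20), where 5.15% and 4.57% of all probe sets did.

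Of the other small leucine-rich proteoglycans 3 of 10 were measured. ASPN was lower than naive, at -1.73 ± 0.38 in CO 24 h and -1.40 ± 0.38 in CO 4 h kidneys (limma adjusted p = 0.0081 and 0.0249). In untreated 24 h kidneys no array was above background for ASPN, and its level was at least 3.71-fold lower than naive (adjusted p = 0.0015). BGN was higher by 0.97 ± 0.31 in CO 24 h than in CO 4 h kidneys (adjusted p = 0.0436). Among 6 of 17 microfibril and elastic fibre genes, MFAP2 was lower than naive, at -1.71 ± 0.26 in CO 24 h, -1.45 ± 0.26 in untreated 24 h and -0.97 ± 0.26 in CO 4 h kidneys, as MFAP5 was. The crosslinking enzyme LOXL1 was higher by 1.52 ± 0.31 in CO 24 h than in CO 4 h kidneys, and LOX was lower, at -1.63 ± 0.43 in untreated 24 h than in untreated 4 h kidneys. Of 6 of 15 versican partners 1 passed against naive, the versican-cleaving protease ADAMTS1, at 2.98 ± 0.74 in CO 24 h, 3.02 in untreated 24 h and 3.77 ± 0.74 in CO 4 h kidneys. Of all probe sets 5.75%, 6.79% and 6.84% passed higher in these comparisons.

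Of 12 of 26 stromal transcription factors and cofactors, MEIS2, the close relative of MEIS1, was lower, at -1.93 ± 0.57 in CO 4 h than in naive kidneys and higher by 2.20 ± 0.46 in CO 24 h than in CO 4 h kidneys (limma adjusted p = 0.0339 and 0.0044). TWIST2 was higher by 1.23 ± 0.37 in CO 24 h than in naive kidneys, and HOXD10 was lower, at -1.06 ± 0.32 in untreated 24 h than in naive kidneys. Of 7 of 9 integrin partners, SPP1, the osteopontin ligand, was higher than naive by 3.52 ± 0.51 in CO 24 h, 3.54 ± 0.51 in untreated 24 h and 2.91 ± 0.51 in CO 4 h kidneys. ITGB1, the beta chain that pairs with ITGA8, was higher by 0.56, 0.59 and 0.58 in these groups. It also passed in untreated 4 h kidneys, at 0.68, with a standard error of 0.16 in each. ITGA8 differed in the opposite direction, but passed only in CO 4 h against naive kidneys. Among 8 of 11 cadherins and catenins CDH1, the epithelial cadherin, was higher by 1.35 ± 0.34 in CO 4 h than in naive kidneys and lower, at -1.01 ± 0.28 in CO 24 h than in CO 4 h kidneys, and CDH13 was higher by 1.43 ± 0.41 there. Of 4 of 6 CXCL12 receptors and modifiers, DPP4, a protease that cleaves CXCL12, was lower than naive, at -1.56 ± 0.39 in CO 24 h and -1.70 ± 0.39 in untreated 24 h kidneys, and HMGB1, a nuclear protein that binds CXCL12, was higher by 0.76 ± 0.21 and 0.69 ± 0.21. Of 12 of 17 smooth muscle and pericyte markers, 6 passed higher in CO kidneys at 24 h against 4 h, where 10.2% of all probe sets did. Among them were ACTA2 (1.98 ± 0.53) and TPM2 (1.85 ± 0.45). ACTG2 was lower, at -1.42 ± 0.37, and SMTN higher by 1.33 ± 0.39 in CO 4 h than in naive kidneys. With batch as a term no gene of these lists passed at 24 h, against naive or against 4 h, except LPL in untreated 24 h against naive kidneys (-1.96, limma adjusted p = 0.038).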

How the data were processed

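Affymetrix pig arrays of 18 kidneys were analysed, 1 per kidney. The deposited values are log2 signal per probe set, made with RMA per the submitters' processing notes; its version, settings and normalisation across arrays are not given in the sources used here, and no raw intensities were used. RMA usually brings arrays to a shared distribution, so a change that affects most genes could be hidden. The file holds 24123 probe sets, of which 23999 remained without the 124 controls and were fitted with limma 3.58.1 (lmFit and eBayes, all 18 arrays, 5 groups, 2-sided, no covariates) in R 4.3.3. P-values were adjusted by Benjamini-Hochberg over all of them, at a threshold of 0.05. The annotation gave 10069 probe sets 1 symbol, 198 several and 13732 none. Tables and figures were made in Python 3.11.15 with pandas 2.3.3 and matplotlib 3.10.9, and the fit was tested on simulated data.

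The members, the 16 comparison lists (145 of 246 entries measured) and the tests were chosen with earlier results of these data known. Named were all 9 members, up to 3 called genes with the largest change per list and comparison, the 5 genes most like the members' mean and the 1 most like each member. The labels give donor numbers, and kidneys of 1 donor pair: their deviations from the group means correlated at -0.20, 0.07, 0.28, 0.57, 0.16, 0.35, 0.27 and 0.39 in donors 1 to 8. The fit without the donor block is given, with the block as an alternative (statmod 1.5.0). Alternatives were trend and robust variances, filters on low values, quantile normalisation, centred medians, array weights, file-name batch, compared groups only, averaged probe sets, donor blocks and leaving out each array. The number of arrays limits the precision, most for the 2 naive kidneys. P-values measure the spread between these kidneys. No sequence was available to print, so a planned promoter description was not run.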

Additional observations from a re-analysis of the deposited data

Results flagged for a closer look

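VCAN in the untreated 4 h kidneys held 1 sample far from the others: donor 1 had a log2 level of 2.00, and the nearest of the other 3 had 4.90. The gap was 0.921 of the group's whole range, above the critical share of 0.829 for 4 samples. Of 40 groups of 4 checked, this was the 1 that passed, while chance alone marks about 1 group in 20. The same array correlated more with naive kidneys (0.982) than with its own group (0.956), and its macrophage and granulocyte marker mean was 3.30. Their part in the VCAN value was not tested.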

How the results depend on the processing

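With 2 naive kidneys, calls against naive rest on few arrays. Donor pairs were tried as a replicate block, random and fixed: the counts of genes passing stayed at 5, 1, 1, 1, 0, 0, 4, 0 and 0 over the 9 comparisons with the random block, and the fixed block left 0 for CO against untreated at both times, so the pairing changed no count. Among alternatives that kept every array, the count for CO 4 h against naive (5) ran from 5 to 7. Untreated 4 h against naive (1 gene) gave 5 with array weights, and 0 with batch or only the compared groups. CO 24 h against naive (1) gave 2 with array weights, only the compared groups or the background filter, and 0 with batch or only bright probe sets. The bright filter kept probe sets with a mean above the median probe set. MFAP5, the gene called here, lay below that and was left out of the fit, so its call was not tested there. In untreated 24 h against naive, DCN passed with that filter (limma adjusted p = 0.032). Untreated 24 h against naive (1) gave 3 with trend and robust variances, array weights or the background filter, 2 with centred medians, 4 with only the compared groups and 0 with batch. CO kidneys, 24 h minus 4 h (4), gave 0 with batch, 7 with only the compared groups, 6 with array weights and 3 with averaged probe sets, and untreated kidneys (0) gave 3 with array weights. With batch the sign turned for CDH11 (-0.51) and MEIS1 (-0.23) in CO 24 h against naive, LUM (-0.043) in CO against untreated at 24 h, LUM (-0.88) and DCN (-0.39) in CO kidneys between times, and MFAP5 (0.51) in untreated kidneys between times. In CO against untreated at 24 h it turned for VCAN with array weights (-0.28) or averaged probe sets (-0.052) and for CXCL12 with averaged probe sets (-0.045). In untreated kidneys between times it turned for VCAN with quantile normalisation (-0.042) or centred medians (-0.018) and for CXCL12 with averaged probe sets (-0.10). For ITGA8 the CO difference between times was -0.045 with array weights. The batch-adjusted differences of 24 h from naive or 4 h kidneys rest on the untreated donor 5 array, and so do their lost calls and turned signs. The cause was not tested.

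Leaving out each array in turn, the counts ran from 0 to 5 for CO 4 h and for untreated 4 h against naive, 0 to 1 for CO 24 h, 0 to 2 for untreated 24 h, 3 to 4 for CO kidneys between times and 0 to 3 for untreated kidneys between times. Signs turned for LUM in untreated 4 h against naive (-0.80 to 0.87), for MEIS1 against naive in CO 24 h (-0.12 to 0.47) and untreated 24 h (-0.48 to 0.11), and for ITGA8 in CO against untreated at 4 h (-0.55 to 0.14). In CO against untreated at 24 h they turned for TCF21 (-0.014 to 0.30), ITGA8 (-0.29 to 0.0053), CXCL12 (-0.17 to 0.78) and VCAN (-0.42 to 0.29). In untreated kidneys between times they turned for VCAN (-0.72 to 0.47) and MFAP5 (-0.23 to 0.18), and for ITGA8 in the CO difference between times (-0.32 to 0.36).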

Other observations

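The 2 probe sets of CXCL12 gave different answers at 24 h. The dimmer set was lower than naive by -1.55 ± 0.37 in CO kidneys (limma adjusted p = 0.0126) and by -1.23 ± 0.37 in untreated kidneys (adjusted p = 0.0339), where the brighter one was -0.56 and -0.80 and did not pass. It had 3.57, 3.58, 4.48 and 3.89 in untreated 24 h and 5.06, 4.28, 4.38 and 4.79 in untreated 4 h kidneys, each below the naive 5.09 and 5.12.

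Proximal tubule markers ran a different course from the stromal genes. Of 10 measured, 8 passed lower than naive in CO 24 h and 9 in untreated 24 h kidneys, against 1 in CO 4 h and 0 in untreated 4 h kidneys, with medians of -2.37, -3.21, -1.32 and -0.59. Of all probe sets 5.93%, 7.77%, 6.72% and 0.563% passed lower in these comparisons. With file-name batch as a term the counts were 0, 6, 3 and 0. The lymphocyte markers, 10 of 14 measured, had a mean level of 2.63 to 4.84 in CO 24 h, 2.80 to 5.30 in untreated 24 h, 2.31 to 3.22 in CO 4 h, 2.65 to 3.61 in untreated 4 h and 2.38 to 3.04 in naive kidneys. In untreated 24 h kidneys 2 of them passed higher than naive (CD3D 1.67, IL2RG 2.73), where 6.79% of all probe sets did. Of 12 measured endothelial markers of 15, PECAM1 passed higher than naive in CO 24 h (1.24 ± 0.34) and untreated 24 h kidneys (1.06 ± 0.34). LYVE1 passed lower in untreated 24 h (-0.58 ± 0.15) and NOS3 higher in CO 4 h kidneys (2.00 ± 0.44). Of all probe sets 5.75% passed higher in CO 24 h, 6.79% higher and 7.77% lower in untreated 24 h, and 6.84% higher in CO 4 h kidneys. So 1 of 12 is not read as more than those shares. With batch as a term no lymphocyte or endothelial marker passed at 24 h against naive, and CD3D was at 0.85, while NOS3 still passed in CO 4 h kidneys. Of 7 measured loop and distal nephron markers of 13, 5 passed lower than naive in CO 24 h and 5 in untreated 24 h kidneys, with medians of -0.96 and -1.01, and none did with batch as a term.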
